A study of Danio rerio with 6 samples.

Results

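The 10 neural miRNAs examined here are strands of miR-124, miR-9, miR-138, miR-219, miR-128, miR-137 and miR-153, miRNAs known best from the brain, measured in a fibroblast cell line. They were listed by name, with earlier results of these data known, and of the partner strands only dre-miR-124-4-5p was among them. They are 10 of the 414 miRNAs in the deposited table, of which 349 are known miRNAs. The table comes from ZF4, a fibroblast line derived from zebrafish embryos, grown as 3 control samples at 28°C and as 3 cold acclimation samples moved to 18°C and kept there for 30 days. All 6 samples were of this single line in the same medium, the labels call the samples of a condition biological replicates, and the small RNA of each was sequenced as 50-bp single-end reads. Levels are in TPM, the authors' name for a share of the library (a miRNA's own reads per 1000000 reads of all listed miRNAs). It has no length term, so levels of different miRNAs can be set side by side only as read numbers.

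A miRNA hairpin is cut into a pair of strands, called 5p and 3p after the arm they come from. Usually one of them is kept in the silencing complex, where it lowers the output of matching messenger RNAs, and the partner strand is degraded. miR-124 is the most abundant miRNA of neurons and promotes the neuronal fate, largely through its 3p strand. miR-9 acts in neural progenitors, miR-128 and miR-137 in developing and mature neurons, miR-138 at dendritic spines and, in zebrafish, in heart patterning, and miR-219 in the maturation of oligodendrocytes. miR-153 lowers proteins of synaptic vesicle release in zebrafish and mammals. Several strands can come from more than 1 hairpin. The RefSeq annotation of the GRCz12tu assembly, used for names alone, lists 6 hairpin genes of miR-9, 5 of miR-124, 3 each of miR-128 and miR-219, 2 of miR-153 and 1 of miR-138. In it mir128-1 and mir128-2 overlap r3hdm1 and arpp21, the latter a gene of neurons. The hairpins mir153b and mir153c overlap ptprnb and ptprna, which encode receptor-type phosphatase-like proteins of secretory vesicles. The hairpins mir124-2, mir138-2 and mir9-4 overlap ift172, tcaim and tmem161a, and mir-124-4, mir-137 and mir-153a were among those not matched. The numbers of hairpin genes count matched gene names and may be incomplete. The strand of these genes was not compared.

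The libraries held between 11748241 and 14960610 miRNA reads, so 1 read was worth 0.0668 to 0.0851 TPM. The 10 listed miRNAs typical of fibroblasts summed to 389818 to 429239 TPM in every library, nearly all of it dre-miR-21, at 379977 to 421105 TPM. The others were far lower, from 1.72 to 24.3 TPM for dre-miR-145-3p up to 2594 to 7440 TPM for dre-miR-199-5p. Of the 10 listed, 2 fell and 0 rose, where 14.5% of the 310 miRNAs tested below fell and 16.5% rose. In 4 the cold acclimation libraries were lower without overlap between the conditions, beside 28.4% of the 310. The median log2 fold change was -0.60, with 9 of 10 below 0, beside 0.02 and 149 of the 310. Several of the 10 are by name strands of the same miRNA, so they are not 10 separate cases. Some also had a far lower value in control replicate 3, though dre-miR-21 did not. In control replicates 1, 2 and 3 dre-miR-143 had 4765, 4665 and 374 TPM and dre-miR-214 had 1722, 1637 and 456 TPM. The 6 muscle miRNAs summed to 2.89 to 6.75 TPM, the 7 blood miRNAs to 3.57 to 7.66 TPM and the 9 epithelial miRNAs to 98.7 to 197 TPM. The 4 pancreatic miRNAs summed to 167 to 210.5 TPM in control and 271 to 388 TPM in cold acclimated cells, nearly all of it dre-miR-375, which rose and is also known from endocrine cells, and its part in the results on neural miRNAs was not tested. dre-miR-1, the defining miRNA of muscle, had at most 3 reads in a control library and 0 reads in the 3 cold acclimation libraries. A floor of 3 reads was set for a count of 0, which is 0.215 to 0.255 TPM in these libraries. This floor is not one of the exact intervals given below. Control replicate 3 stood apart from the other controls by more than 1 on the log2 scale in 24 miRNAs (17 lower and 7 higher), and 0 of the tested neural miRNAs were among them. dre-miR-219-5p came close, at 0.99, and dre-miR-153a-3p, dre-miR-153b-3p and dre-miR-138-5p were at -0.59, -0.56 and 0.50. The other tested neural miRNAs lay between -0.13 and -0.0019. The count of 0 therefore does not mean that this library left the members unaffected. Cold acclimated and control cells were compared by limma on log2(TPM + 1) for 310 miRNAs, those averaging above 1.5 TPM over the 6 libraries, and 51 (16.5%) rose and 45 (14.5%) fell at an adjusted p under 0.01. The split was 32 against 77 with the study's clean reads as library sizes, which shifted the median log2 fold change by -0.25, and 51 against 67 with median-of-ratios scaling.

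The neural miRNAs together made up a small part of the miRNA reads of these fibroblasts, and in bulk RNA a level shared by all cells and a higher level in fewer cells cannot be told apart. Summed over the 10, they had 954, 1244 and 1145 TPM in control replicates 1, 2 and 3 and 1380, 1686 and 1184 TPM in cold acclimation replicates 1, 2 and 3, or 0.0954% to 0.169% of the reads. The lowest cold acclimation library lay within the control range, so the conditions overlapped in this sum. dre-miR-128-3p, dre-miR-138-5p and dre-miR-153c-3p carried between 96.0% and 97.6% of it in each library. All 10 were detected in 5 libraries, and 9 in cold acclimation replicate 3, where dre-miR-124-3p had no read.

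**Figure D1:**
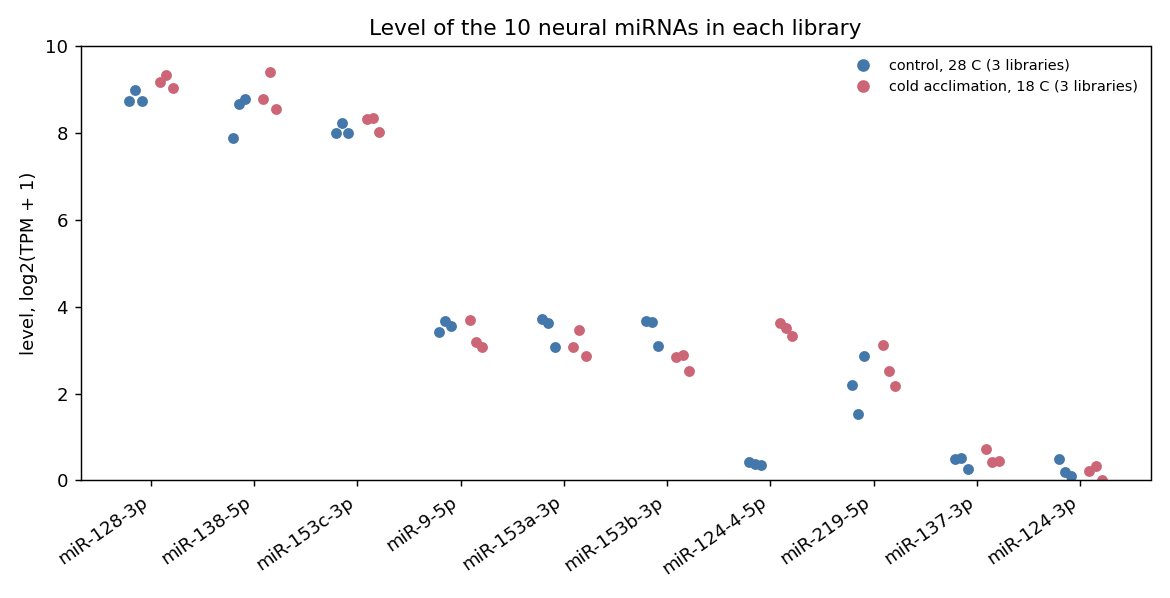
Level of each neural miRNA, as log2(TPM + 1), in the 3 control libraries (blue) and the 3 cold acclimation libraries (red), ordered by the mean of the 6 libraries, with 1 point per library. miR-128-3p, miR-138-5p and miR-153c-3p stand far above the rest, and miR-124-4-5p is the member whose conditions lie farthest apart.

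The members fell into 3 levels. dre-miR-128-3p had the highest mean over the 6 libraries, 515 TPM, and ranked 69th of the 349 known miRNAs, dre-miR-138-5p had 428 TPM and dre-miR-153c-3p 285 TPM. The ranges of dre-miR-128-3p and dre-miR-138-5p overlapped at both temperatures, and those of dre-miR-138-5p and dre-miR-153c-3p overlapped in the control libraries but not in the cold acclimation libraries. A middle level held dre-miR-9-5p, dre-miR-153a-3p, dre-miR-153b-3p, dre-miR-124-4-5p and dre-miR-219-5p, with means of 9.93, 9.09, 8.02, 5.29 and 4.63 TPM. In the control libraries dre-miR-9-5p, dre-miR-153a-3p and dre-miR-153b-3p could not be ordered beyond their spread, and dre-miR-124-4-5p lay far below all of them. dre-miR-137-3p and dre-miR-124-3p, both under 1 TPM in every library, made up the lowest level.

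Of the 8 neural miRNAs abundant enough to be tested, 1 rose in cold acclimated cells, 0 fell and 7 did not pass the limma test. The background was 16.5% of tested miRNAs that rose and 14.5% that fell. At a limma adjusted p under 0.05, 1 member rose and 1, dre-miR-153b-3p, fell, where 75 of the 310 rose and 77 fell. The median log2 fold change of the 8 was 0.26, beside 0.02 over all 310, with 5 above 0 and 3 below. With clean reads as library sizes the members were at -0.041 and all 310 at -0.23, with 4 members above 0 and 4 below. A filter at 7.5 TPM left out dre-miR-124-4-5p and dre-miR-219-5p. The median of the 6 members kept was then -0.040, beside 0.031 over all miRNAs kept, with 3 above 0 and 3 below. In 3 of the 8 the control and cold acclimation values in TPM were fully separate, and of these 2 were higher and 1 lower in cold acclimated cells. Of all tested miRNAs, 29.7% were higher and 28.4% lower without overlap. These counts hold for the TPM scaling only. dre-miR-128-3p, among the 2 higher, had a log2 fold change of 0.06 with clean reads as library sizes. The member that rose was dre-miR-124-4-5p, and it was also a DE-miRNA, which in addition needs a fold change above 2.5 (7.42% of the tested miRNAs were higher DE-miRNAs). It rose in each alternative that tested it. Except with no filter, however, it was tested only because it is high in the cold acclimation libraries, so these alternatives are not separate evidence of its rise. dre-miR-153b-3p fell with clean reads as library sizes, with median-of-ratios scaling and without control replicate 3.

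**Figure D2:**
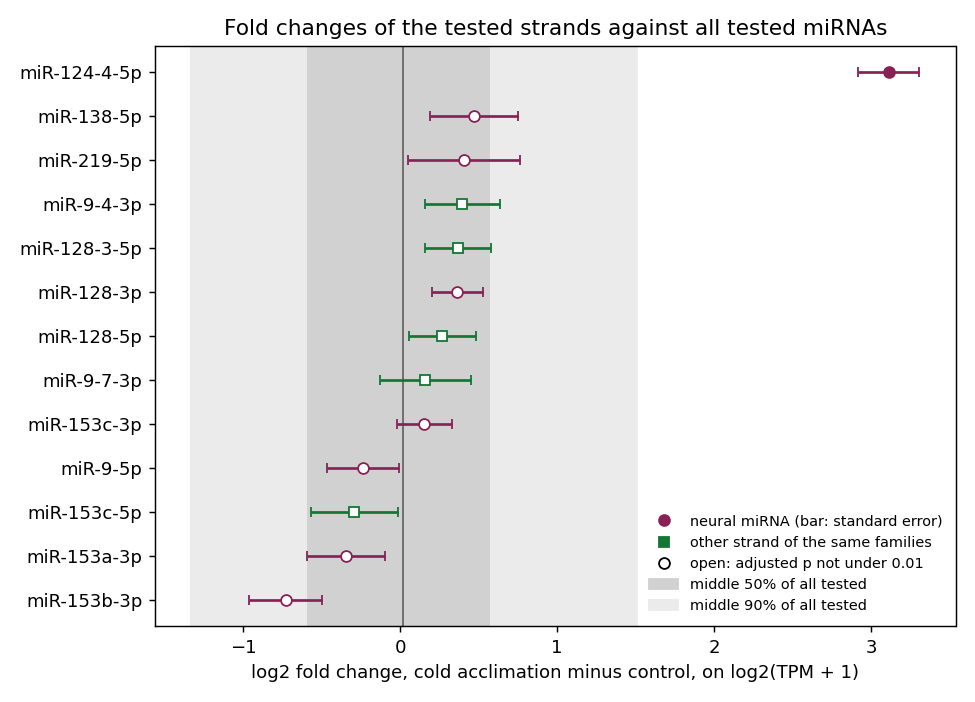
log2 fold change on the log2(TPM + 1) scale, cold acclimation minus control, of the 8 tested neural miRNAs (circles) and the 5 tested other strands of their families (squares), with standard errors as bars. Open symbols have an adjusted p that is not under 0.01. The dark and light bands hold the middle 50% (-0.59 to 0.57) and the middle 90% (-1.33 to 1.51) of the 310 tested miRNAs, and miR-124-4-5p, at 3.11, is the only strand plotted outside the light band.

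dre-miR-124-4-5p is the 5p strand named for the hairpin mir-124-4. It had 0.334, 0.292 and 0.276 TPM in control replicates 1, 2 and 3, which is 5, 4 and 4 reads, and 11.3, 10.5 and 9.09 TPM in cold acclimation replicates 1, 2 and 3, which is 136, 123 and 127 reads. Every cold acclimation library was far above every control library, and within each condition the libraries were close together. Its log2 fold change was 3.11 (standard error, SE, 0.19, limma adjusted p = 3.3e-06), first among the 310 tested miRNAs. It passed the filter of 1.5 TPM only through the cold acclimation libraries, in which it is high, and had thus to differ to be tested at all, while its sister strands were left out. With no filter, over all 414 miRNAs, the limma adjusted p was 1.4e-05. On the plain TPM scale the mean rose from 0.301 ± 0.0302 to 10.3 ± 1.10 TPM (SD over n = 3 libraries each), a ratio of 34.2. From the summed reads, 13 in control and 386 in cold acclimated cells, the ratio of levels was 33.9 with an exact 95% interval of 19.6 to 64.3, which covers counting error only. With 1 library left out the log2 fold change lay between 3.05 and 3.19. It was 4.69 on log2(TPM + 0.1) and 1.52 on log2(TPM + 5), past the test's threshold on both, since the pseudocount weighs on a miRNA with so few control reads.

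No separation of this kind was seen in the other strands of miR-124, all of them below the filter of 1.5 TPM. dre-miR-124-3p, the main strand in neurons, had 6, 2 and 1 reads in control replicates 1, 2 and 3 and 2, 3 and 0 reads in cold acclimation replicates 1, 2 and 3, or 0.205 ± 0.174 and 0.140 ± 0.130 TPM (SD over n = 3 libraries each; exact two-sided permutation test, p = 0.7). Its summed reads allow 0.0953 to 0.396 TPM in control cells and 0.0430 to 0.309 TPM in cold acclimated cells (exact Poisson, 95%), and the ratio of the summed levels was 0.635 with an exact 95% interval of 0.167 to 2.11. That interval pools the reads of the libraries of a condition and covers counting error only, not the spread among libraries. A rise of the size seen for dre-miR-124-4-5p lay outside it, and smaller differences in either direction were not resolved at this depth. dre-miR-124-6-5p, the 5p strand named for mir-124-6, was the most abundant strand of the family in control cells, with 1.40, 1.46 and 1.17 TPM, and had 0.580, 1.19 and 1.22 TPM in cold acclimated cells (exact two-sided permutation test, p = 0.3). The remaining strand, dre-miR-124-5p, had 0.207 to 0.583 TPM in control and 0.331 to 0.681 TPM in cold acclimated cells. Both ranges overlapped between the conditions.

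The make-up of the family differed between the temperatures. dre-miR-124-4-5p held 11.8% to 16.0% of the reads of the 4 strands in control and 83.1% to 91.3% in cold acclimated cells, out of 25 to 37 reads and 148 to 150 reads. For each read of dre-miR-124-6-5p there were 0.224 ± 0.0212 reads of dre-miR-124-4-5p at 28°C and 11.9 ± 6.56 at 18°C (SD over n = 3 libraries each; exact two-sided permutation test, p = 0.1, and no smaller p is possible with 3 libraries a side). This ratio was chosen after the values were seen, and the spread in cold acclimated cells came mostly from replicate 1, which had 7 reads of dre-miR-124-6-5p. The sources used here do not give how reads matching several miRNAs were counted, so reads of closely related 5p strands may have been split among them.

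**Figure D3:**
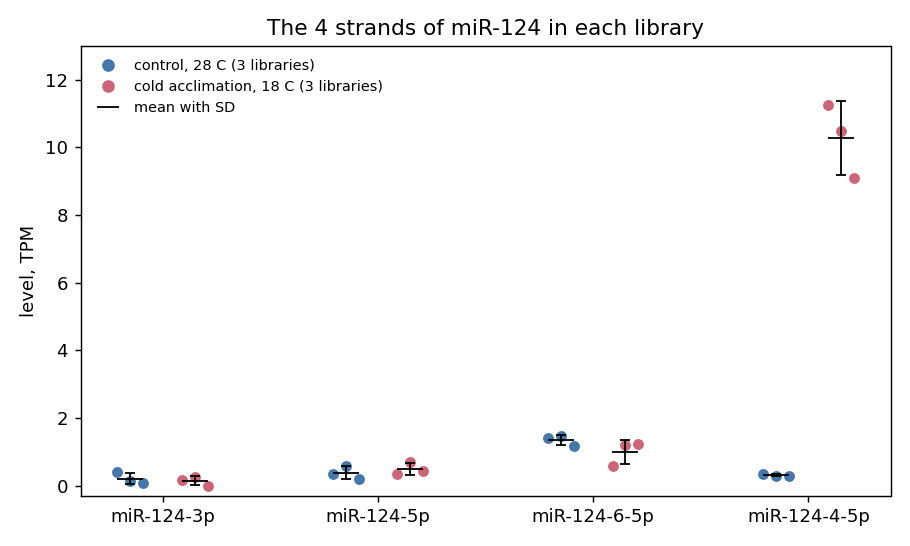
Level in TPM of the 4 miR-124 strands in each control (blue) and cold acclimation (red) library, with the mean and SD of each condition in black. Only miR-124-4-5p of the 4 strands separates the conditions, at 0.276 to 0.334 TPM against 9.09 to 11.3 TPM, while miR-124-3p stays at or below 0.401 TPM in all 6 libraries.

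Of the miR-153 strands, dre-miR-153b-3p had the lowest fold change among the tested members. dre-miR-153b-3p had 11.8, 11.5 and 7.59 TPM in control replicates 1, 2 and 3 and 6.13, 6.38 and 4.73 TPM in cold acclimation replicates 1, 2 and 3. All cold acclimation libraries were below all control libraries, though control replicate 3 was close to them. The log2 fold change was -0.73 (SE 0.23, limma adjusted p = 0.025), which does not pass the threshold of 0.01. It passed when libraries were scaled by clean reads (-0.97, adjusted p = 0.0057), with median-of-ratios scaling (-0.81, adjusted p = 0.00995) and without control replicate 3 (-0.92, adjusted p = 0.0041). Over all alternatives the adjusted p from limma lay between 0.0041 and 0.093.

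Its partner strand, dre-miR-153b-5p, was too low to be tested in the same way, with 13, 18 and 11 control reads and 5, 5 and 4 reads after cold acclimation. These are 0.980 ± 0.293 and 0.375 ± 0.0772 TPM (SD over n = 3 libraries each; exact two-sided permutation test, p = 0.1, the smallest possible). Here too the conditions did not overlap, and the ratio of the summed levels was 0.381 with an exact 95% interval of 0.192 to 0.711 for counting error alone. Both strands named for mir-153b thus had their cold acclimation libraries below their control libraries. Such separation was common, as 28.4% of all tested miRNAs were lower and 29.7% higher without overlap. dre-miR-153b-3p did not pass the threshold, and the reads of dre-miR-153b-5p were few.

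dre-miR-153c-3p, the most abundant miR-153 strand, had 255, 299 and 253 TPM in control and 320, 324 and 258 TPM in cold acclimated cells. Its conditions overlapped, and the log2 fold change of 0.16 (SE 0.17, limma adjusted p = 0.48) turned to -0.15 when libraries were scaled by clean reads (adjusted p = 0.42). dre-miR-153a-3p had 12.1, 11.4 and 7.45 TPM in control and 7.37, 9.96 and 6.30 TPM in cold acclimated cells, with overlap and a log2 fold change of -0.34 (SE 0.25, adjusted p = 0.28). Set against dre-miR-153c-3p in the same library, which does not depend on the scaling, there were 4.61, 3.85 and 3.0 reads of dre-miR-153b-3p per 100 in control replicates 1, 2 and 3 and 1.91, 1.97 and 1.83 in cold acclimation replicates 1, 2 and 3. Control and cold acclimation libraries were fully separate in this ratio, chosen after the values were seen (exact two-sided permutation test, p = 0.1). For dre-miR-153a-3p the ratio was 3.83 ± 0.898 in control and 2.61 ± 0.411 in cold acclimated cells (SD over n = 3 libraries each; exact two-sided permutation test, p = 0.2). The 3p strands of miR-153 are near-identical, so the levels of the less abundant ones may include reads of dre-miR-153c-3p.

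**Figure D4:**
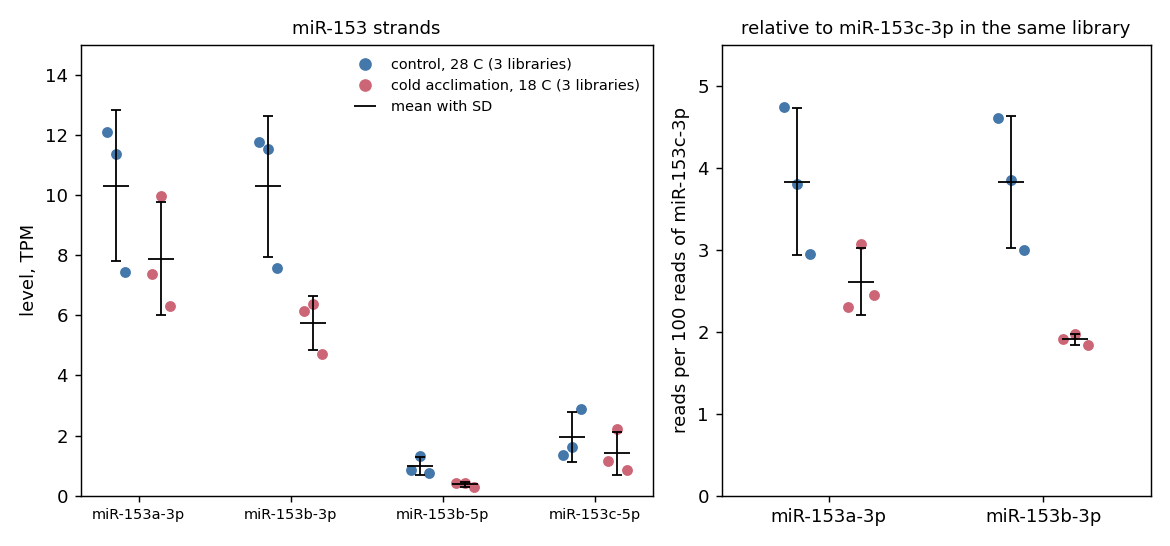
Left, level in TPM of 4 miR-153 strands in each control (blue) and cold acclimation (red) library, with mean and SD in black. Right, reads of miR-153a-3p and miR-153b-3p per 100 reads of miR-153c-3p in the same library. The cold acclimation points of miR-153b-3p, at 1.83 to 1.97, sit below its control points, at 3.0 to 4.61, while those of miR-153a-3p overlap.

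In TPM, dre-miR-128-3p was higher in every cold acclimation library than in every control library, by a small margin. It had 424, 504 and 422 TPM in control replicates 1, 2 and 3 and 575, 646 and 521 TPM in cold acclimation replicates 1, 2 and 3. The log2 fold change of 0.37 (SE 0.16) did not pass the test (limma adjusted p = 0.087), and with clean reads as library sizes it was 0.06. The partner strands of its hairpins were far lower. dre-miR-128-3-5p had 3.21, 3.65 and 3.79 TPM in control and 5.88, 4.85 and 4.01 TPM in cold acclimated cells, again without overlap in TPM. It did not pass the test (log2 fold change 0.37, limma adjusted p = 0.17), and its log2 fold change was 0.12 with clean reads as library sizes. dre-miR-128-5p, with 3.03 ± 0.160 and 3.91 ± 0.923 TPM (SD over n = 3 libraries each), overlapped between the conditions (log2 fold change 0.27, limma adjusted p = 0.32).

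dre-miR-138-5p varied among libraries of the same condition. It had 236, 403 and 438 TPM in control replicates 1, 2 and 3 and 440, 676 and 374 TPM in cold acclimation replicates 1, 2 and 3. Control replicate 1 was the lowest and cold acclimation replicate 2 the highest, and the others lay within 374 to 440 TPM at both temperatures. The log2 fold change was 0.47 (SE 0.28, limma adjusted p = 0.19). Leaving out 1 library moved it between 0.19 and 0.65, and the lowest adjusted p, 0.037, came without control replicate 3. Its partner strands dre-miR-138-3p and dre-miR-138-2-3p had 2 to 18 reads and 4 to 10 reads per library.

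dre-miR-219-5p was the least steady of the tested members. It had 3.61, 1.90 and 6.28 TPM in control replicates 1, 2 and 3 and 7.70, 4.77 and 3.51 TPM in cold acclimation replicates 1, 2 and 3. The conditions overlapped over most of their range, at 26 to 93 reads per library, and the log2 fold change was 0.41 (SE 0.35, limma adjusted p = 0.37). It lay between 0.07 without control replicate 2 and 0.74 without control replicate 3. The partner strand dre-miR-219-3p had 0 to 6 reads.

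dre-miR-9-5p had 9.69, 11.8 and 10.7 TPM in control replicates 1, 2 and 3 and 11.9, 8.09 and 7.37 TPM in cold acclimation replicates 1, 2 and 3. The highest and the lowest values were both in cold acclimated cells, and the log2 fold change was -0.23 (SE 0.23, limma adjusted p = 0.42). Leaving out 1 library moved it between -0.42 and -0.11, and it was -0.50 when libraries were scaled by clean reads (limma adjusted p = 0.051). The 3p strands of miR-9, which in neural progenitors are also active, were present as well, at lower levels. dre-miR-9-4-3p had 3.28, 3.79 and 2.21 TPM in control and 4.22, 5.45 and 3.44 TPM in cold acclimated cells (log2 fold change 0.40, SE 0.24, adjusted p = 0.19). dre-miR-9-7-3p had a log2 fold change of 0.16 (SE 0.29), which turned to -0.057 with clean reads as library sizes, -0.10 without control replicate 3 and -0.0072 without cold acclimation replicate 2, and dre-miR-9-3p had 0 to 6 reads.

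dre-miR-137-3p, found in neural progenitors and synapses, stood close to the limit of detection, with 6, 6 and 3 reads in control replicates 1, 2 and 3 and 8, 4 and 5 reads in cold acclimation replicates 1, 2 and 3. Its level was 0.349 ± 0.124 TPM in control and 0.454 ± 0.181 TPM in cold acclimated cells (SD over n = 3 libraries each; exact two-sided permutation test, p = 0.6). The ratio of the summed levels was 1.29, and its exact 95% interval of 0.608 to 2.78 leaves room for a change in either direction at this depth.

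The families differed in which arm most of their reads came from. These are shares of sequenced reads, and which strand was kept in the silencing complex was not measured. Reads on the 5p strand were 99.5% to 99.8% of all miR-138 reads and 90.3% to 100% of all miR-219 reads over the 6 libraries. For miR-128 and miR-153 most reads were on 3p strands, with 1.30% to 1.56% and 0.451% to 1.42% of reads on 5p strands. Taken by name, the 5p share was 0 to 2.70% for miR-153a, 5.71% to 10.2% for miR-153b and 0.333% to 1.13% for miR-153c. Of these, only miR-153b had no overlap between the conditions. miR-9 had reads on both arms when all its listed strands were counted, with 59.4%, 64.8% and 75.2% on the 5p strand in control replicates 1, 2 and 3 and 61.8%, 46.8% and 59.2% in cold acclimation replicates 1, 2 and 3. With dre-miR-9-5p set against the unnumbered dre-miR-9-3p alone, the 5p share was 96.0% to 100% in every library, so nearly all reads on the 3p arm were those of dre-miR-9-4-3p and dre-miR-9-7-3p. For miR-124, where the 3p strand is the main one in neurons, the 5p strands held 83.8%, 94.1% and 96.0% in control and 98.7%, 98.0% and 100% in cold acclimated cells. Among the 6 families compared, the conditions did not overlap for miR-124, with a difference of 7.58 percentage points (cold acclimation minus control), and for miR-153, with a difference of -0.47 percentage points (exact two-sided permutation tests, p = 0.1 each, the smallest possible, and 0.3 after adjustment over the 6 families). The miR-124 difference was 3.82 without control replicate 1 and that of miR-153 was -0.28 without control replicate 3. With dre-miR-124-4-5p left out, an alternative chosen after seeing the data, the 5p shares of miR-124 were 81.2% to 95.2% in control and 84.6% to 100% in cold acclimated cells and overlapped (difference 0.931 percentage points), so the share restates the rise of that strand. The other 4 families had p-values of 0.2 to 0.8 from the same exact permutation test. These shares do not depend on how libraries are scaled, and those of miR-124 in control cells rest on 25 to 37 reads.

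**Figure D5:**
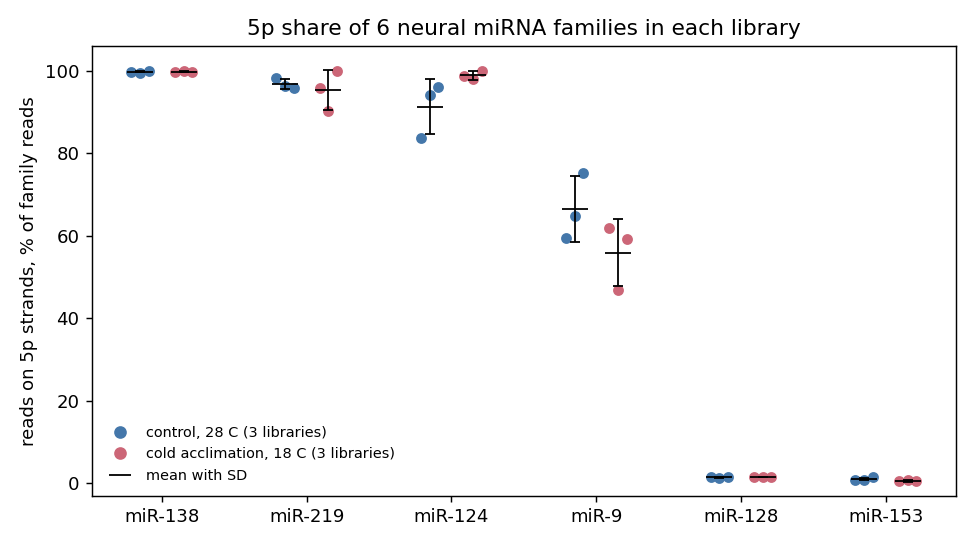
Reads on 5p strands as a percentage of all reads of the family, for 6 neural miRNA families in each control (blue) and cold acclimation (red) library, with mean and SD in black. miR-138, miR-219 and miR-124 lie near 100%, miR-128 and miR-153 near 0, and miR-9 between 46.8% and 75.2%.

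Of the 13 other strands of these families in the table, 5 were tested. Of these, 0 rose or fell at an adjusted p under 0.01 with limma, where 16.5% of all tested miRNAs rose and 14.5% fell. Their log2 fold changes lay between -0.29 and 0.40, with a median of 0.27. The 8 below the filter had between 0 and 21 reads in each library, and of these dre-miR-153b-5p was the only strand without overlap between the conditions. Among the tested miRNAs, all above the filter, 28.4% were lower and 29.7% higher without overlap.

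Some other miRNAs known from neurons and sensory cells passed the test. In a list of 24 such strands, chosen with results of these libraries known, 15 were tested, 6 rose, 1 fell and 8 were not called, where 16.5% of all tested miRNAs rose and 14.5% fell, with a median log2 fold change of 0.82 beside 0.26 for the 8 members and 0.02 for all 310, and the difference between the lists was not tested. dre-miR-183-5p, of a cluster of sensory organs, had 22, 18.8 and 16.8 TPM in control and 71.9, 82.4 and 83.1 TPM in cold acclimated cells, and dre-miR-182-5p of the same cluster had a log2 fold change of 1.62 (limma adjusted p = 9.4e-05). The others that rose were dre-miR-129-5p, dre-miR-132-3p, dre-miR-132-5p and dre-miR-212-5p, with log2 fold changes of 0.87, 0.99, 0.88 and 1.41, and the one that fell was dre-miR-7a, from 12.5 ± 1.07 to 5.69 ± 0.544 TPM (SD over n = 3 libraries each; log2 fold change -1.01). By name dre-miR-132-3p and dre-miR-132-5p are arms of the same miRNA, and miR-132 and miR-212 also form a cluster. The 6 that rose are therefore not 6 separate cases. dre-miR-218a, known from motor neurons, was the most abundant strand of the list, with 932 to 1246 TPM in control and 747 to 1104 TPM in cold acclimated cells (log2 fold change -0.18, limma adjusted p = 0.46).

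The profile of each tested member over the 6 libraries was set beside those of the other 309 tested miRNAs, by the root mean square difference of log2(TPM + 1) after each miRNA was centred on its own mean. The 5 nearest to dre-miR-124-4-5p were dre-miR-16b (0.472), dre-miR-2185-5p (0.563), dre-miR-183-5p (0.583), dre-miR-193b-5p (0.588) and dre-miR-15b-3p (0.613), where the median over all was 1.56. All 5 rose less than it did, with log2 fold changes of 2.22, 2.38, 1.99, 2.02 and 1.98, which ranked 3, 2, 5, 4 and 6 among the tested miRNAs. As dre-miR-124-4-5p itself ranked first, its distances largely restate the size of the rise and are no separate result. dre-miR-16b was far more abundant, at 2352 ± 117 TPM in control and 11141 ± 2396 TPM in cold acclimated cells (SD over n = 3 libraries each). The nearest to dre-miR-153b-3p was dre-miR-301b-3p, at 0.0505, with a log2 fold change of -0.74 (limma adjusted p = 0.024). For the members that did not change past the threshold the nearest were dre-let-7j for dre-miR-128-3p (0.0789), dre-miR-27e for dre-miR-153c-3p (0.0833), dre-miR-221-3p for dre-miR-153a-3p (0.120), the predicted dre-miR-N30 for dre-miR-9-5p (0.140), dre-miR-212 for dre-miR-138-5p (0.182) and the predicted dre-miR-N14 for dre-miR-219-5p (0.254). These differences are a description over 6 libraries that all profiles share, and say nothing of common function or control.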

How the data were processed

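The authors trimmed and filtered 50-bp single-end small RNA reads to 17 to 35 nt, aligned them to miRBase 22 with Bowtie2 2.3.0 (the submitters' processing notes also name danRer10 and GRCz10) and predicted further miRNAs with miRCat. The deposited values are CPM, named TPM by the authors: reads of a miRNA per 1000000 miRNA reads of the library, in 3 control and 3 cold acclimation libraries. Values are whole multiples of 1 read (largest deviation below 100 reads 5.8e-07 reads), from which read numbers were taken. Only 84 to 98 values per library are of 1 to 20 reads, so these numbers, and the intervals from them, rest on few low values, and count models were not applied.

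log2(TPM + 1) of the 310 miRNAs with a mean above 1.5 TPM entered a limma fit (version 3.58.1, R 4.3.3, eBayes with trend, Benjamini-Hochberg over all 310, adjusted p under 0.01). On simulated counts for these 310 miRNAs, in 20 draws, the test called 92.1% at a simulated log2 change of 1, 100% at 2 and 0.28% of unchanged ones. The simulation gave all miRNAs the same variability beyond counting error and no outlying library. That variability was a set value, not estimated from these libraries, and the rates depend on it. These rates need not hold for variable members such as dre-miR-138-5p and dre-miR-219-5p, whose log2(TPM + 1) had an SD of 0.48 and 0.66 in control. For single values and 5p shares an exact two-sided permutation test was used (SciPy 1.17.1), whose smallest p is 0.1. Read intervals are 95% exact Poisson or binomial and cover counting error only, since they pool the reads of the libraries of a condition. PCR reads are not independent molecules, so the intervals may be too narrow even for that. The members, and the lists set beside them, were chosen with earlier results of these data known. Named miRNAs are the 10 members, the other strands of their families, the 5 nearest profiles to dre-miR-124-4-5p and the nearest to each other tested member, and in the list of other nervous-system miRNAs the most abundant and the 2 with the smallest adjusted p. miRNAs outside this rule, among them the other 5 called in that list and dre-miR-1, were named after their values were seen. Alternatives were other pseudocounts, filters, scalings and thresholds, a replicate block and each library left out. The plots came from matplotlib 3.10.9 (Python 3.11.15).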

Additional observations from a re-analysis of the deposited data

How the results depend on the processing

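The rise of dre-miR-124-4-5p passed in all 12 alternatives that tested it, with log2 fold changes of 1.52 to 4.69. Except for the fit with no filter, these alternatives all kept the filter of 1.5 TPM on the mean of the 6 libraries. dre-miR-124-4-5p passed that filter only through the cold acclimation libraries, so the alternatives are not separate evidence of its rise. With a filter at 7.5 TPM it was not tested, so 0 neural miRNAs rose. The count of neural miRNAs that fell went from 0 to 1 with clean reads as library sizes, with median-of-ratios scaling, at an adjusted p under 0.05 and without control replicate 3 (0 to 1 over the libraries left out), each time dre-miR-153b-3p. The sign of dre-miR-153c-3p turned with clean reads (-0.15), and that of dre-miR-9-7-3p with clean reads (-0.057), without control replicate 3 (-0.10) and without cold acclimation replicate 2 (-0.0072, in a range of -0.10 to 0.38 over the libraries left out). Of all tested miRNAs, 32 rose and 77 fell with clean reads, and 75 rose and 77 fell at an adjusted p under 0.05. With 1 library left out, 24 to 68 rose and 18 to 67 fell: 24 and 18 without cold acclimation replicate 1, 25 and 28 without replicate 2, 42 and 21 without replicate 3, and 34 and 27 without control replicate 1, 39 and 29 without replicate 2, and 68 and 67 without replicate 3.

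With a replicate block, 1 neural miRNA rose and 0 fell, and 39 rose and 30 fell over all. Nothing in the labels pairs the libraries, and deviations of same-numbered libraries correlated at 0.015, 0.14 and 0.060. Each library correlated best with its own number, which is a hint from the data and not from the design. The 2 planned count tests on read numbers were not run. The difference in 5p share of miR-9 went from -10.6 to -0.999 percentage points with unnumbered strands alone, and that of miR-124 from 7.58 to 0.931 with dre-miR-124-4-5p left out (chosen after seeing the data). Depth limits dre-miR-124-3p and dre-miR-137-3p, with 0 to 8 reads per library.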
